A study of Mus musculus with 6 samples.

Results

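The genes described here are the metalloproteinases of the matrix metalloproteinase (MMP), ADAM and ADAMTS families and their tissue inhibitors, the TIMPs. They were taken by gene symbol, as every row named Mmp, Adam, Adamts or Timp with a number, except Mmp8 and Mmp9. This gave 77 of the 23183 genes in the tables: 21 Mmp, 33 Adam, 19 Adamts and 4 Timp genes. Their RNA was measured by sequencing of mouse lung tissue (C57BL/6 background) in 6 libraries. A group of 3 libraries came from lungs given saline by intratracheal instillation, and the other 3 from lungs given lipopolysaccharide (LPS), the Gram-negative cell wall component that inflames the lung, by the same route. All 6 titles name wild-type mice, but the genotype field, wild type for saline, reads LCN2-/- for LPS 1 and LPS 2 and LCN4-/- for LPS 3. Lcn2 RNA was high in the libraries labelled as knockouts, at 13.60 in LPS 1 and 13.29 in LPS 2 against 8.20 to 11.28 in saline, which goes against that label. Were that field correct, genotype would follow treatment and their effects could not be told apart. The labels give no age, sex, dose or time after instillation for either group and do not say whether each library is a separate mouse, so p-values reflect only how much these samples vary, and that variation may be technical.

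These enzymes share a zinc-dependent catalytic site and act outside the cell or at its surface. MMPs cut collagens, elastin and other matrix proteins and are made as inactive proenzymes, secreted or anchored in the membrane. ADAMs are membrane proteins, several of which shed the outer part of cytokines, receptors and adhesion molecules, and ADAMTS enzymes are secreted and cut proteoglycans, procollagens or von Willebrand factor. TIMPs bind the catalytic site of the active enzymes, and TIMP3 is held in the matrix. In the inflamed lung the balance between the enzymes and TIMPs is known for its part in leukocyte passage, cytokine release and matrix repair.

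Levels are the deposited values, which are log2 of an expression value plus 1, and a difference is the LPS mean less the saline mean on it. The expression value appears to be scaled by transcript length, so that levels of different genes are compared per length. For genes near 0 the added 1 makes the difference smaller than the true log2 ratio. Folds given below are likewise those of the expression value plus 1. The table of LPS 3 ends before the Timp genes, which therefore have 3 saline and 2 LPS values. The depth of the libraries is unknown. The summed deposited value off the log scale, over genes with a value in all 6 libraries, was 467500 to 552400 in saline and 854300 to 885400 in LPS. Setting these sums equal moved the median difference of all genes from 0.02 to -0.68. Each direction below holds for the scaling as deposited. A change with equal sums is named where it occurred for these genes and for the named genes that work with them. The calls of the cell type marker lists were not examined with equal sums. The tables also differ in their low range, with 3869 exact zeros in each saline table and 5117 to 6223 in the LPS tables.

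Of the 77 genes, 31 passed the filter of a value of at least 1 before the log in at least 3 libraries, 31 others were lower but above 0 in some library, and 15 were at 0 in all 6. Of the 31 tested genes, 9 were higher in LPS, 9 were lower and 13 did not pass (limma, Benjamini-Hochberg adjusted over 13116 genes, threshold 0.05). These 18 are 58.1% of the tested genes, against 50.1% of all genes tested. Over all genes tested, 25.7% were higher and 24.3% lower, so that the 29.0% in each direction among the metalloproteinases and TIMPs was close to the share of all genes. Their median difference was -0.04. LPS values lay entirely above the saline values in 10 of the 31 genes and entirely below in 9, while the same held for 32.7% and 30.7% of all genes tested (63.4% in both directions). Among the 18 genes past the test, Mmp13 had passed the filter in LPS libraries alone and Mmp28 and Adam23 in saline libraries alone. The genes past the test lie on both sides of 0 within the MMP (4 higher, 4 lower), ADAM (1 and 1), ADAMTS (3 and 3) and TIMP (1 and 1) families. With equal sums 4 of the 31 tested genes were higher and 20 lower, against 6.08% and 63.6% of all genes. The 20 were the same 9 lower genes and Adam9, Adam10, Adam15, Adam17, Adam19, Adam28, Adamts5, Adamts15, Mmp12, Timp3 and Timp4. At a threshold of 0.01 there were 5 and 7, against 15.5% and 15.3% of all genes. The calls that ended at this threshold were those of Mmp3, Mmp23, Adamts9, Adamts13, Adamts2 and Timp2.

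**Figure D1:**
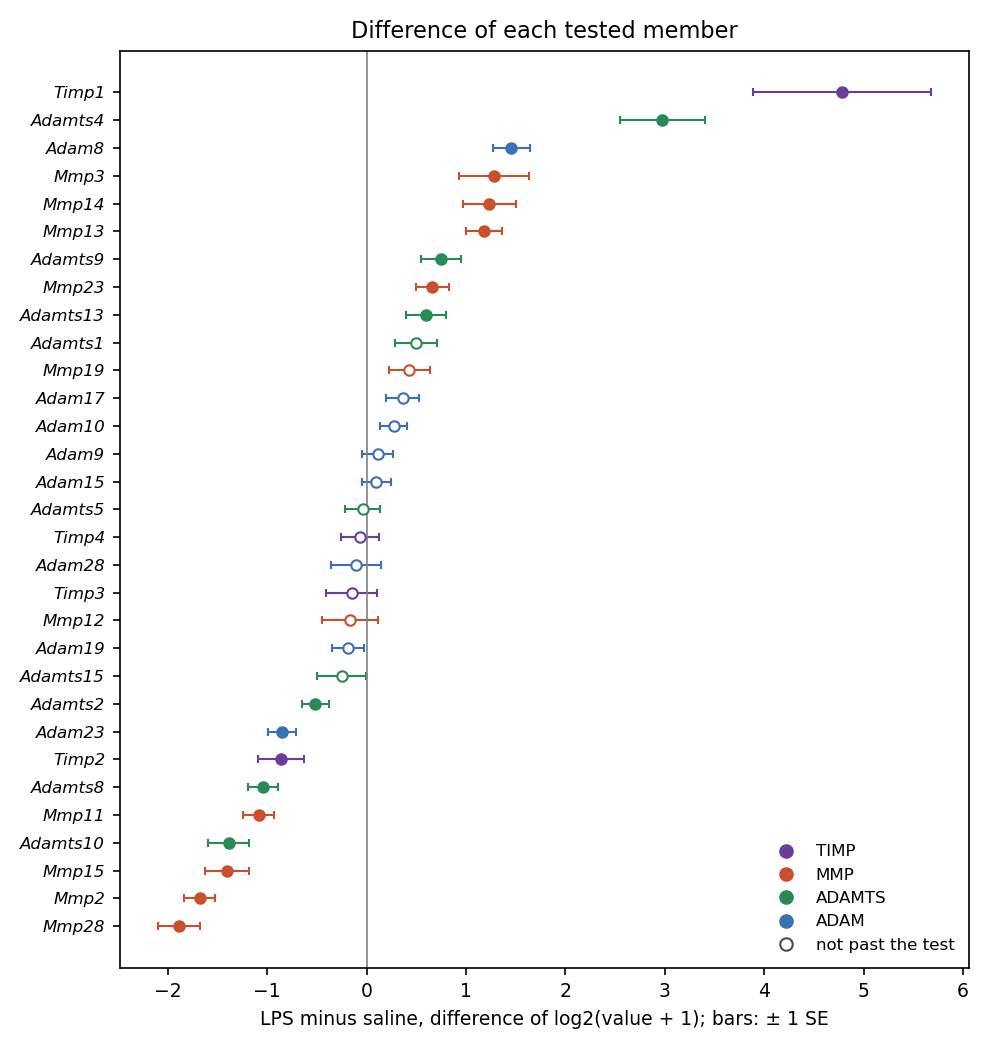
LPS minus saline difference (horizontal axis, log2(value + 1) scale) of the 31 tested metalloproteinase and TIMP genes, with bars of 1 SE from the limma fit. Filled points passed the test and open points did not, and the range runs from Mmp28 (-1.88) to Timp1 (4.78).

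**Figure D2:**
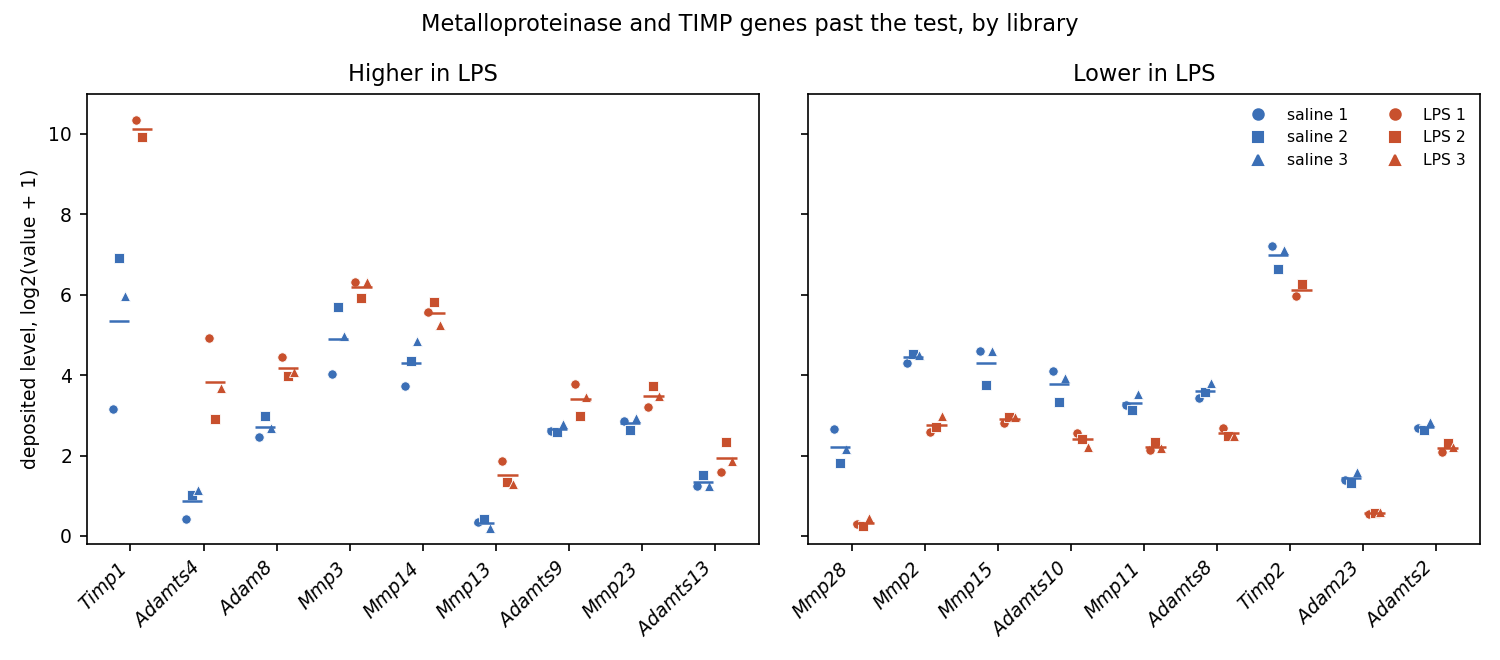
Deposited level (vertical axis, log2(value + 1)) in each library for the 9 genes higher in LPS and the 9 lower, with a line at each group mean. Saline and LPS points do not overlap for any of the 18, and the 3 saline libraries lie farthest apart for Timp1, which has no LPS 3 value.

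The promoters of Mmp13, Mmp3 and Timp1 are shown because these genes are among those that rose. Mmp13 and Mmp3 hold the same motifs, while the upstream sequence of Timp1 differs. Each is the 250 bases before the annotated start, from RefSeq on the GRCm38.p6 build (mm10). Capitals mark matches to 3 motifs, which were searched on both strands and did not overlap in these sequences. The motif known from AP-1 binding was spelled TGANTCA. For ETS factors the letters AGGAAG were searched. The TATA box was taken as TATAAA.
Mmp13, chr9:7272264-7272513, + strand: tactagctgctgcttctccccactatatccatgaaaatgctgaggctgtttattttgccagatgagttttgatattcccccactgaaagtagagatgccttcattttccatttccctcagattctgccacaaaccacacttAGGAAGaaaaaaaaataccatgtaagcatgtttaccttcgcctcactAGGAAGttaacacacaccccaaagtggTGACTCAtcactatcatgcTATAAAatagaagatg
Mmp3, chr9:7445572-7445821, + strand: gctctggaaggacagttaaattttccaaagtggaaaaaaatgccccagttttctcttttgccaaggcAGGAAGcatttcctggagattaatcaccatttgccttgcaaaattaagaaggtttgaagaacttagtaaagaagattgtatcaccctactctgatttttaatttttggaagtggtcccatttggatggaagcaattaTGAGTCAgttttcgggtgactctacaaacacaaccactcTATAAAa
Timp1, chrX:20869916-20870165, + strand: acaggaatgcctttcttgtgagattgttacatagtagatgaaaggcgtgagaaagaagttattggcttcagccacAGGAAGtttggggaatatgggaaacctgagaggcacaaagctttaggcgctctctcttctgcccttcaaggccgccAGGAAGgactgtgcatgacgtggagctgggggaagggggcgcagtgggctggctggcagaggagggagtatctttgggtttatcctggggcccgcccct
In Mmp13 the TGANTCA match lies 35 to 29 bases before the start and the TATAAA match 16 to 11 bases before it. In Mmp3 these matches lie at 46 to 40 and at 7 to 2 bases. The Timp1 sequence holds AGGAAG at 175 to 170 and at 99 to 94 bases before the start, and neither TGANTCA nor TATAAA. A window of 300 bases, from 250 before to 50 after the start, was at hand for 48 of the 77 genes and for 22 of the 31 tested. The counts that follow are of genes, with a match in any window of a gene counted. Adam19 had 3 windows and Mmp12 and Mmp23 had 2 each, so more sequence was searched for them. TGANTCA was in 2 of 8 such genes that rose (Mmp13, Mmp3), in 0 of 6 that fell and in 2 of 8 of the others (Adam19, Mmp12), against 8.97% of 27025 genes. AGGAAG was in 5 of 8, 0 of 6 and 6 of 8, against 38.4%. TATAAA was in 2, 0 and 2 of the same genes, against 15.7%. The NF-kB motif was found in 1 tested gene, Adam19, and in 5.14% of all genes. The GC box GGGCGG, not marked in capitals, was in 6 of 8, 5 of 6 and 6 of 8 genes, against 38.2%. The STAT motif TTCNNNGAA was in 1 of 8 (Mmp23), 0 of 6 and 0 of 8, against 9.55%. These matches describe the letters in the windows and were not tested.

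Timp1 rose the most of all the metalloproteinase and TIMP genes. It encodes a secreted inhibitor of most MMPs and lies on chromosome X (20870166 to 20874735, mm10), in the opposite direction within Syn1. Its levels were 3.15, 6.92 and 5.98 in saline 1, 2 and 3 and 10.34 and 9.91 in LPS 1 and 2. Both LPS values were far above all saline values, and the saline libraries themselves were wide apart. The means were 5.35 ± 1.96 (SD, n = 3) and 10.12 ± 0.30 (SD, n = 2), a difference of 4.78 (SE 0.90; limma adjusted p = 0.00311) or 27.5-fold. The difference stayed past the test in all 16 alternatives, at 3.68 to 5.56. Syn1, which shares the locus, was at 0.45 to 0.74 in all libraries with a value.

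Timp2, which both inhibits MMPs and helps MMP14 to activate pro-MMP2, was lower in LPS (chromosome 11, 118301069 to 118355740). Its levels were 7.21, 6.63 and 7.11 in saline and 5.98 and 6.27 in LPS. The groups did not overlap, and the difference was -0.86 (SE 0.23; limma adjusted p = 0.0143). The call ended without LPS 1 (-0.72; adjusted p = 0.0979) and with the replicate number as a block (-0.80; adjusted p = 0.0661). Timp3 was the highest of the 31 tested genes in saline, at 7.95, 7.32 and 7.58, and was 7.22 and 7.72 in LPS. These values overlapped, with a difference of -0.15 (SE 0.26; limma adjusted p = 0.652). Timp4 was at 2.0, 2.21 and 1.87 in saline and 1.77 and 2.15 in LPS, which also overlapped (-0.07, SE 0.19; limma adjusted p = 0.785). The signs of Timp3 and Timp4 turned when single libraries were left out, Timp4 also with quantile normalization. With equal sums both were called lower.

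The makeup of the TIMP transcripts is given next for each library. Off the log scale the 4 genes summed to 404, 380 and 392 in saline 1, 2 and 3 and to 1504 and 1253 in LPS 1 and 2. Timp1 made up 1.94%, 31.5% and 15.8% of that sum in the saline libraries and 85.9% and 77.0% in the LPS libraries. Timp3 was the largest share in each saline library, at 41.8% to 60.9%, and was 9.84% and 16.7% in LPS. Over the same libraries the 21 MMP genes summed to 97.1, 135 and 134 in saline and to 164 and 156 in LPS, with 157 in LPS 3. That MMP sum leaves out Mmp8 and Mmp9. Together these came to 12.7, 23.9 and 12.3 in saline and to 129, 33.6 and 54.4 in LPS 1, 2 and 3. Over genes with a value in all 6 libraries, the deposited values summed to 467500 to 552400 in saline and 854300 to 885400 in LPS. Relative to those totals the sum of the 21 MMP genes was not higher in LPS. The MMP and TIMP sums are given as a description, with no test.

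**Figure D3:**
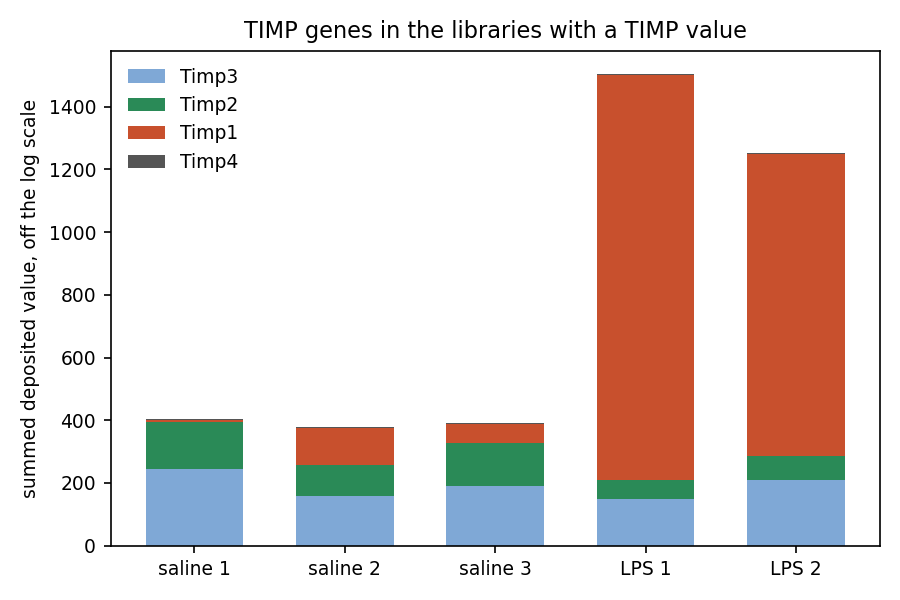
Deposited values of the 4 TIMP genes off the log scale (vertical axis), stacked in each of the 5 libraries that have them. The saline stacks reach 380 to 404 and are mostly Timp3 and Timp2, and the LPS stacks reach 1253 and 1504 and are mostly Timp1.

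Among the MMPs, the stromelysin, collagenase and membrane-type genes Mmp3, Mmp13 and Mmp14 rose. Mmp3 encodes stromelysin-1, which cuts proteoglycans and activates other pro-MMPs (chromosome 9, 7445822 to 7455975). It was at 4.02, 5.69 and 4.98 in saline and 6.30, 5.92 and 6.31 in LPS. All LPS values were above the saline values, though saline 2 came close to LPS 2. The difference was 1.28 (SE 0.35; limma adjusted p = 0.0141). The call ended with quantile normalization (0.92), with equal sums (0.50) and without a filter on low values (adjusted p = 0.0671). Mmp13, the main interstitial collagenase of rodents (chromosome 9, 7272514 to 7283331), was near 0 in saline, at 0.36, 0.43 and 0.19, and 1.87, 1.35 and 1.30 in LPS. All LPS libraries were above the saline libraries, and the difference was 1.18 (SE 0.18; limma adjusted p = 0.00103). With a pseudocount of 0.1 in place of 1 it was 2.48. Mmp14 encodes the membrane-type enzyme MT1-MMP, which cuts fibrillar collagen and activates pro-MMP2 (chromosome 14, 54431612 to 54445364). Its levels were 3.73, 4.36 and 4.84 in saline and 5.57, 5.83 and 5.24 in LPS, with no overlap and a difference of 1.24 (SE 0.27; limma adjusted p = 0.00503). With equal sums the call ended (0.46).

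Mmp23, a membrane-bound MMP of unusual domain structure, was also higher, at 3.21, 3.73 and 3.49 in LPS against 2.86, 2.63 and 2.94 in saline. The groups did not overlap (0.66, SE 0.17; limma adjusted p = 0.0105). Its sign turned with equal sums (-0.05), and the call ended without saline 2 and LPS 3 together (0.56).

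Mmp28, Mmp2, Mmp15 and Mmp11 fell, and these calls held in all the alternatives that included each gene. Mmp28 encodes epilysin, a secreted MMP made by epithelium (chromosome 11, 83440768 to 83463071). Its levels were 2.65, 1.80 and 2.16 in saline and 0.29, 0.24 and 0.44 in LPS. No LPS library came near the saline values, and the difference was -1.88 (SE 0.21; limma adjusted p = 0.000233). Mmp2, the gelatinase of fibroblasts and other stromal cells (chromosome 8, 92827291 to 92853420), was at 4.30, 4.51 and 4.51 in saline and 2.59, 2.70 and 2.98 in LPS. Both groups were tight, and the difference of -1.68 (SE 0.15; limma adjusted p = 0.000104) is a 3.21-fold decrease. Mmp2 was 9th of the 31 genes by mean level in saline and 19th in LPS. Mmp14, the activator of its product, went from 11th to 5th.

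Mmp15, which encodes the membrane-type enzyme MT2-MMP (chromosome 8, 95352268 to 95375080), was at 4.59, 3.76 and 4.59 in saline and 2.81, 2.96 and 2.95 in LPS. The LPS libraries were alike and below all saline libraries (-1.40, SE 0.22; limma adjusted p = 0.00110). Mmp11, stromelysin-3 of stromal cells (chromosome 10, 75923222 to 75936496), was at 3.26, 3.13 and 3.53 in saline and 2.14, 2.34 and 2.18 in LPS, again without overlap (-1.09, SE 0.15; limma adjusted p = 0.000642).

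Mmp12, the macrophage elastase (chromosome 9, 7344381 to 7369499), did not pass. It was at 1.07, 2.37 and 1.72 in saline and 1.41, 1.70 and 1.55 in LPS, so that the LPS values lay inside the saline range (-0.17, SE 0.28; limma adjusted p = 0.639). Its sign turned without saline 2 (0.16) and with quantile normalization (0.15). Mmp19 was at 2.50 to 3.23 in saline and 3.01 to 3.47 in LPS (0.43, SE 0.21; limma adjusted p = 0.110), and passed without saline 2 (0.62; adjusted p = 0.025).

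Mmp3, Mmp12 and Mmp13 belong to a cluster of MMP genes on chromosome 9, which also holds Mmp1a, Mmp1b, Mmp7, Mmp10, Mmp20 and Mmp27. In this cluster Mmp13 and Mmp12 are neighbours on the plus strand with 61049 bases between them. Among the genes of the cluster described here, Mmp13 and Mmp3 rose and Mmp12 did not pass. Mmp8, an MMP gene left out by symbol, rose as well (3.33; limma adjusted p = 0.000658). The collagenase genes Mmp1a and Mmp1b and the enamel protease gene Mmp20 were at 0 in all 6 libraries. Mmp10, Mmp7 and Mmp27 were at most 0.32 in any library. Both TGANTCA and TATAAA are in the promoter windows of 8 of the 9 cluster genes described here, all but Mmp27, including those at 0 in all libraries.

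Of the 7 tested sheddase-type ADAM genes, Adam8 rose and the other 6 did not pass, which is 14.3% called against 50.1% of all genes tested. ADAM8 is made by neutrophils, macrophages and activated epithelium and sheds adhesion molecules such as L-selectin. Adam8 (chromosome 7, 139978932 to 139992562) was at 2.46, 2.99 and 2.67 in saline and 4.44, 3.98 and 4.07 in LPS. All LPS libraries were above all saline libraries, and the difference was 1.46 (SE 0.19; limma adjusted p = 0.000401) or 2.74-fold. It passed in all 16 alternatives, at 0.74 to 1.65.

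Adam17, which encodes the enzyme that releases TNF and the IL-6 receptor (chromosome 12, 21323509 to 21373632), was at 4.14, 4.53 and 4.23 in saline and 4.86, 4.60 and 4.52 in LPS. The lowest LPS value lay just under the highest saline value (0.36, SE 0.16; limma adjusted p = 0.0901). It passed without saline 2 (0.48; adjusted p = 0.0283) and without saline 2 and LPS 3 together (0.55), and with equal sums its sign turned and it was called lower (-0.40; adjusted p = 0.0360). Adam10, the sheddase of Notch, CX3CL1 and E-cadherin (chromosome 9, 70678997 to 70780229), was at 4.89, 4.83 and 4.94 in saline and 5.25, 5.15 and 5.08 in LPS. These groups did not overlap, but the difference of 0.27 (SE 0.14; limma adjusted p = 0.124) did not pass. It passed as higher without a filter on low values (adjusted p = 0.0466). Its sign turned with quantile normalization (-0.04) and with equal sums, where it was called lower (-0.51; adjusted p = 0.0122). Adam9 and Adam15 were the highest ADAM genes in both groups. Adam9 was at 5.26 to 5.38 in saline and 5.18 to 5.56 in LPS (0.11, SE 0.16; limma adjusted p = 0.576). Adam15 was at 5.14 to 5.30 and 5.17 to 5.46 (0.10, SE 0.15; limma adjusted p = 0.606). Their ranges overlap each other in both groups, so their order is within the spread. Adam19 had a difference of -0.19 and Adam28 of -0.11, with overlapping groups. With equal sums Adam9 (-0.67), Adam15 (-0.69), Adam19 (-0.89) and Adam28 (-0.79) were called lower. The sign of Adam28 turned without saline 2 (0.01) and without LPS 1 (0.16).

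Adam23, a neuronal-type ADAM without a working catalytic site that binds integrins (chromosome 1, 63445891 to 63596276), fell. It was at 1.40, 1.31 and 1.59 in saline and 0.55, 0.58 and 0.61 in LPS. The LPS libraries were nearly the same and all below saline (-0.85, SE 0.14; limma adjusted p = 0.00149).

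Adamts4 had the largest rise of any enzyme gene among the members. It encodes aggrecanase-1, which cuts aggrecan and versican (chromosome 1, 171250421 to 171260637). Its levels were 0.42, 1.02 and 1.15 in saline and 4.92, 2.90 and 3.69 in LPS. Every LPS library was above every saline library, with LPS 1 well above the other two. The difference was 2.98 (SE 0.43; limma adjusted p = 0.000704) or 7.86-fold for the value plus 1, and it passed in all 16 alternatives. With a pseudocount of 0.1 in place of 1 the difference was 3.935. By mean level Adamts4 was 30th of the 31 genes in saline and 12th in LPS. Off the log scale it made up 31.5% of the summed ADAMTS values in LPS 1, where it was the highest ADAMTS gene, while Adamts1 was the highest in the other 5 libraries.

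Adamts9, another proteoglycan-cleaving enzyme gene (chromosome 6, 92772699 to 92943492), was at 2.62, 2.59 and 2.78 in saline and 3.79, 2.99 and 3.45 in LPS. The groups did not overlap (0.75, SE 0.20; limma adjusted p = 0.0127), but the call ended with equal sums (0.04) and without saline 2 and LPS 3 together (0.69). Adamts8, of the same group (chromosome 9, 30942562 to 30963838), fell, from 3.42, 3.58 and 3.80 in saline to 2.69, 2.49 and 2.49 in LPS. No LPS value reached the saline range (-1.04, SE 0.15; limma adjusted p = 0.000721). Its neighbour Adamts15, 20109 bases away on the other strand, was at 2.91 to 3.50 in saline and 2.38 to 3.29 in LPS and did not pass (-0.25, SE 0.25; limma adjusted p = 0.419). Adamts1, an early response gene of the family, was at 4.46, 4.41 and 4.92 in saline and 4.71, 5.40 and 5.16 in LPS. These overlapped (0.50, SE 0.21; limma adjusted p = 0.0789), and it passed without saline 3 (0.66) and without LPS 1 (0.69). Adamts5, aggrecanase-2, lies 53059 bases from Adamts1 on chromosome 16 and was at 1.68 to 2.26 in saline and 1.87 to 2.09 in LPS (-0.04, SE 0.17; limma adjusted p = 0.868).

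Adamts10, whose product binds fibrillin microfibrils (chromosome 17, 33524204 to 33553782), fell from 4.11, 3.34 and 3.92 in saline to 2.57, 2.41 and 2.22 in LPS. All LPS values were below the saline values (-1.39, SE 0.21; limma adjusted p = 0.000841). Adamts2, the procollagen N-proteinase of skin and other connective tissue (chromosome 11, 50602084 to 50807573), was at 2.68, 2.63 and 2.83 in saline and 2.08, 2.30 and 2.21 in LPS. The groups did not overlap (-0.51, SE 0.14; limma adjusted p = 0.0132), but the call ended with quantile normalization (-0.30) and without LPS 1 (-0.46). Adamts13, which encodes the protease that shortens von Willebrand factor (chromosome 2, 26973416 to 27009628), was at 1.25, 1.52 and 1.24 in saline and 1.60, 2.34 and 1.87 in LPS. LPS 1 was just above saline 2 (0.60, SE 0.20; limma adjusted p = 0.0322). This was the least stable of the 18 calls. It ended without saline 1 (0.56), without saline 3 (0.55), without LPS 2 (0.40), without LPS 3 (0.63), without saline 2 and LPS 3 together (0.72), with equal sums (0.06), at the threshold of 0.01 and without a filter on low values (adjusted p = 0.0809).

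The 46 genes that did not pass the filter include 25 of the 33 ADAM genes. All 21 ADAM genes outside the sheddase-type and non-catalytic groups of body tissues, most of them known from the testis and epididymis, were among them. The 15 genes at 0 in all 6 libraries were Adam2, Adam20, Adam24, Adam25, Adam26a, Adam26b, Adam29, Adam34, Adam39, Adam6a, Adamts16, Mmp1a, Mmp1b, Mmp20 and Mmp21. Of the 6 germ cell markers of the testis, Prm2, Tnp1 and Acrv1 were at 0 in every library with a value. Prm1 was at most 0.005 in saline and 0.40, 0.41 and 0.72 in LPS. Zpbp was at 0.29 to 0.40 in saline and 0.26 and 0.14 in LPS, and Ddx4 was at most 0.16.

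The other 31 reached at most 1.33 in any library. LPS values lay below all saline values in 15 of them, above in 2 (Adamts14 and Mmp24), and overlapped in 14. Of all 6198 genes of this kind, 41.6% lay below and 6.95% above. Among the 15, Adam18 and Adamts18 had values under 0.01 in 2 of 3 saline libraries against 0 in all LPS libraries. Between 1505 and 1936 genes had values above 0 and under 0.01 in each saline library, against 11 to 24 genes in each LPS library. When all 19314 genes with a value above 0 in at least 2 libraries were fitted, 9 of these 31 were lower in LPS and 1 was higher (limma with Benjamini-Hochberg adjustment), against 17.5% lower and 15.9% higher of all genes in that fit. The genes called lower were Adam3, Adam5, Adam7, Adam11, Adam33, Adamts6, Adamts12, Adamts17 and Mmp16, and the gene called higher was Adamts14. Adam3, a sperm protein gene in its known role, was at 0.81, 0.65 and 0.64 in saline and 0.03, 0.00 and 0.08 in LPS. Adam33, of airway smooth muscle and fibroblasts, was at 0.93, 0.66 and 0.65 in saline and 0.25, 0.33 and 0.23 in LPS. Adamts17 was at 0.74, 0.51 and 0.74 in saline and 0.06, 0.05 and 0.05 in LPS. Adamts14, a procollagen N-proteinase gene, was at 0.69, 0.64 and 0.80 in saline and 1.26, 1.13 and 0.90 in LPS. Mmp25, the membrane-type MMP of neutrophils, was at 0.39, 1.01 and 0.97 in saline and 1.33, 0.71 and 0.95 in LPS, and overlapped. At these levels the values lie in the range where the saline and LPS tables differ in their zeros, and the part of that difference in these results was not tested.

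**Figure D4:**
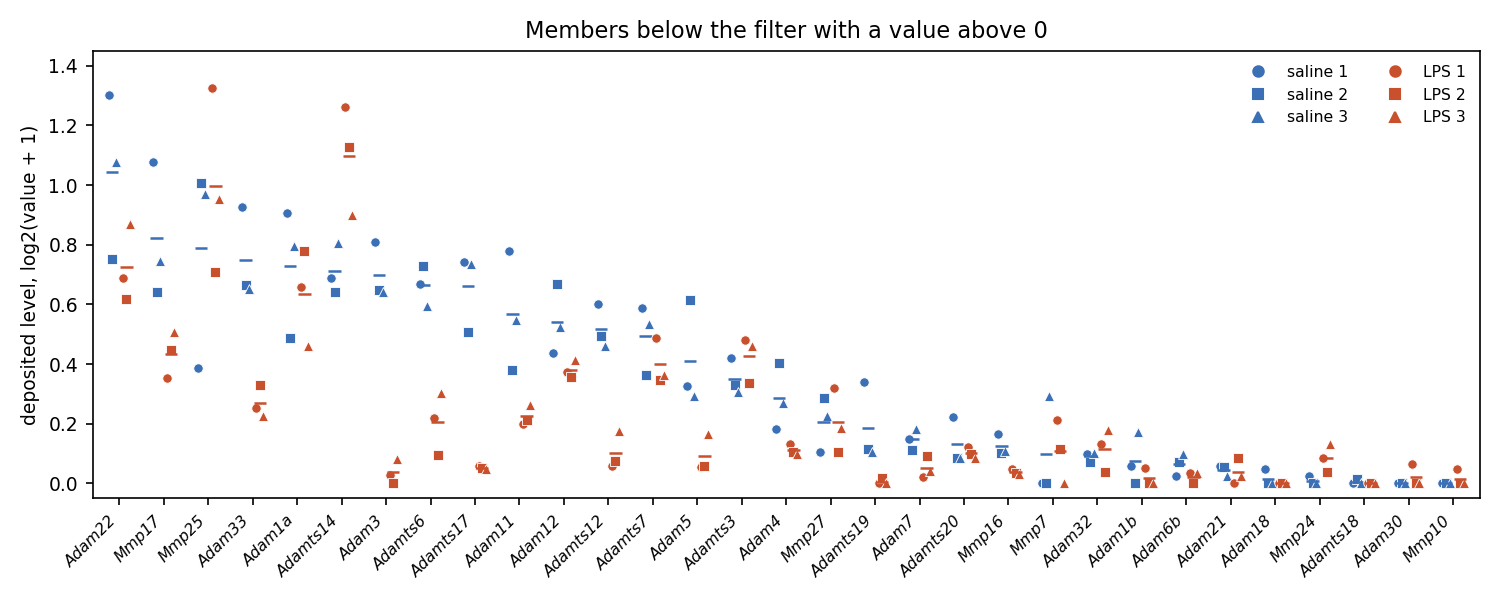
Deposited level (vertical axis, log2(value + 1)) in each library of the 31 metalloproteinase genes that were above 0 but did not pass the filter, in order of the saline mean, with a line at each group mean. The highest value is 1.33 (Mmp25 in LPS 1), and Adam3, Adamts17 and Adamts12 show LPS points well below the saline points.

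Genes that work with these enzymes were taken from 6 lists of 71 genes, of which 55 were tested, 17 were higher, 15 were lower and 23 did not pass. Of all genes tested, 25.7% were higher and 24.3% lower, so these counts lay close to the share of all genes. Of 8 tested partners of ADAM17 and ADAM10, 1 rose and 3 fell. Rhbdf2 encodes iRhom2, which carries ADAM17 to the cell surface, and was at 3.17, 3.20 and 3.54 in saline and 4.87, 4.42 and 4.28 in LPS (1.22, SE 0.19; limma adjusted p = 0.00101). It ended with equal sums (0.47). The tetraspanin genes Tspan15 (-0.88), Tspan17 (-0.72) and Tspan5 (-0.53), whose products accompany ADAM10, fell. These have no LPS 3 value, and leaving out LPS 2 ended the call of Tspan15 (-0.78), leaving out LPS 1 that of Tspan17 (-0.61), and leaving out LPS 1 or LPS 2 that of Tspan5 (-0.58 and -0.48). The call of Tspan5 also ended with the replicate number as a block (-0.53; adjusted p = 0.0774).

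Of 10 tested activators and other inhibitors, 2 rose and 3 fell. Plat, the gene of tissue plasminogen activator, rose from 4.32, 4.46 and 4.39 in saline to 6.16, 5.78 and 6.63 in LPS (1.80, SE 0.21; limma adjusted p = 0.000270). Furin, whose product removes the prodomain of many ADAMs and membrane-type MMPs, had a difference of 0.67. Its sign turned with equal sums (-0.10), and the call ended with quantile normalization, without LPS 1 and without saline 2 and LPS 3 together. Reck, which encodes a membrane-anchored inhibitor of MMP2, MMP9 and MMP14, fell from 3.97, 2.95 and 3.63 in saline to 2.13, 1.93 and 2.07 in LPS (-1.47, SE 0.24; limma adjusted p = 0.00116). Spock2 (-1.42), a testican, ended without LPS 1. Pcsk6 (-0.78), a proprotein convertase, ended without saline 3 and with quantile normalization. With no filter on low values neither Spock2 nor Pcsk6 passed, and Spock2 has no LPS 3 value.

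In the list of ADAM-like and ADAMTS-like genes 4 of 6 tested fell and 0 rose. Those that fell were ADAMTS-like genes, whose products share the outer domains of ADAMTS enzymes but lack the protease. They were Adamtsl2 (-1.13), Adamtsl3 (-1.13), Adamtsl5 (-1.08) and Adamtsl1 (-0.78). Among other metzincins 1 of 8 was tested, and Bmp1, the procollagen C-proteinase, was at 2.90 to 3.25 in saline and 2.70 to 3.11 in LPS and did not pass (-0.16, SE 0.16; limma adjusted p = 0.435). With equal sums Bmp1 was called lower. The related Tll1 was at 0.74 to 1.08 in saline and 0.50 and 1.11 in LPS.

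Of 22 tested genes of membrane proteins that these enzymes shed, 12 rose, 1 fell and 9 did not pass, beside the 25.7% higher and 24.3% lower of all genes tested. These counts hold for the scaling as deposited and were not made with equal sums. Those that rose included the genes of TNF (Tnf, 3.56), the chemokine CXCL16 (Cxcl16, 2.27), syndecan-4 (Sdc4, 1.97) and the second TNF receptor (Tnfrsf1b, 1.91). Each of these named genes kept its call in all 16 alternatives, equal sums included. Tnf and Tnfrsf1b have no LPS 3 value. Tnf was at 1.33, 3.81 and 1.84 in saline and 6.12 and 5.65 in LPS 1 and 2. Notch1 fell (-0.67), a call that ended without saline 1, without saline 3, without LPS 3 and without a filter on low values. Among 8 tested matrix and plasma substrates, 2 rose and 4 fell. Vcan, the gene of versican, which ADAMTS4 cuts, rose from 1.36, 2.19 and 1.90 in saline to 4.73 and 3.80 in LPS 1 and 2 (2.44, SE 0.32; limma adjusted p = 0.000604). Thbs1, the gene of thrombospondin-1, also rose (2.38) and has no LPS 3 value. The collagen genes Col1a1 (-1.87), Col1a2 (-1.44) and Col3a1 (-1.29) and the elastin gene Eln (-1.17) fell, and the call of Eln ended without a filter on low values.

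Markers of several cell types moved in the same libraries, on the scaling as deposited. In whole tissue, fewer cells of a type and less RNA per cell cannot be told apart. Of 8 neutrophil markers in the tables, which include Mmp8 and Mmp9, 7 rose, and Ly6g was absent from the tables. Summed off the log scale they were 653, 1965 and 700 in saline 1, 2 and 3 and 25380, 9786 and 18100 in LPS 1, 2 and 3. All 7 markers of monocytes and macrophages rose, with sums of 116 to 224 in saline and 376 to 695 in LPS. Of 8 fibroblast markers 5 fell, while Pdgfra (0.24), Dcn (-0.03) and Lum (-0.45) did not pass. The 7 with 6 values summed to 1466 to 2287 in saline and 451 to 585 in LPS. Most of that saline sum was Inmt, at 10.88, 10.52 and 10.13 in saline and 7.93, 8.55 and 8.32 in LPS. Of 7 markers of smooth muscle and pericytes 5 fell, with sums over 6 of them of 198 to 322 in saline and 78.4 to 169 in LPS. All 7 heart muscle markers fell, with sums over 6 of them of 1330, 361 and 135 in saline 1, 2 and 3 and 17.1 to 78.2 in LPS. The saline libraries were thus wide apart among themselves. The 3 tested fat cell markers fell, and all 4 in the tables summed to 17.4 to 41.4 in saline and 0.51 to 3.50 in LPS. How much heart and fat tissue each sample held is not known. All 4 B cell markers fell, with sums of 121 to 205 in saline and 17.4 to 28.5 in LPS. Of 8 alveolar macrophage markers 3 fell, among them Siglecf (-1.63) and Ear1 (-2.14), and 1 rose. Of the epithelial markers, 3 of 6 for alveolar type 2 cells and 1 of 5 for type 1 cells fell, and of 4 for the airway 2 rose and 1 fell. Further falls were found for 2 of 6 endothelial, 2 of 4 T cell and 2 of 3 tested mesothelial markers, and 0 of 3 cartilage markers were tested. The part of these shifts in the differences of the metalloproteinase and TIMP genes was not tested.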

How the data were processed

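RNA from mouse lung was sequenced in 6 libraries. Trizol extraction and a strand-specific library kit are named per the labels' protocols, and TopHat and mm10 per the submitters' processing notes. The sources used here do not give the counter, annotation or scaling. The deposited values look like log2 of a value plus 1, since they start at exact zeros and reach 17.3. Low values times transcript length gathered in steps (45 to 66 genes in the fullest bin of each library, against 22 to 34 with no length), so depth in reads is unknown and the unit before the log appears scaled by length. LPS 3 lacks 4484 of 23183 genes. No pair of libraries shared an identical value over the 9554 to 12860 genes compared.

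limma 3.58.1 in R 4.3.3, with a variance trend, was fitted to all 13116 genes with a value of at least 1 before the log in at least 3 libraries, with Benjamini-Hochberg adjustment and a threshold of 0.05. The fit was tested on simulated data. Genes without an LPS 3 value were fitted on 5 libraries. All genes past the test are named, with values in each library for the 10 largest differences in each direction, for every Timp, for Adam10, Adam17, Mmp2, Mmp3, Mmp12 and Mmp14, and for genes whose call or sign changed. Of each partner list, all genes past the test in a direction are named where they are 5 or fewer. Otherwise the 4 with the largest differences are named. Alternatives were 2 pseudocounts (0.1 and 5), no filter, a mean of at least 5, quantile normalization, equal sums, no trend, a block, a threshold of 0.01 and libraries left out. The genes and lists were chosen with earlier results of these data known. Coordinates are from GENCODE M21 and promoters from RefSeq, both on GRCm38.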

Additional observations from a re-analysis of the deposited data

How the results depend on the processing

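Of the 18 genes past the test, 11 kept call and direction in all alternatives that included them and 15 kept the call with each library left out in turn. Mmp23 alone changed sign (-0.050, equal sums). Equal sums gave 4 genes higher and 20 lower (6.08% and 63.6% of all genes), the threshold of 0.01 gave 5 higher (15.5% of all genes), and no filter on low values gave 18 lower of 62 (17.5% of all genes), since more genes were tested. With each library left out in turn there were 8 to 11 higher, 7 to 9 lower and 27 to 38 of the partner genes called. With the replicate number as a block, 9 were higher, 8 lower and 30 partner genes were called. Equal sums called 43 partner genes in either direction, against 32 with the scaling as deposited. Among the partner genes named, the calls of Tspan5, Furin, Pcsk6 and Notch1 ended at the threshold of 0.01. Deviations from the group means had correlations of -0.25 to -0.08 between same-numbered libraries over 10295 genes. Between libraries of other numbers they were -0.01 to 0.22. With so few libraries in a group, their deviations constrain each other, so these correlations cannot show whether the labels' numbers mark pairs.

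Among genes not past the test, signs turned with quantile normalization for Adam10 (-0.037), Adam15 (-0.26), Adam9 (-0.27), Adam28 (0.056), Adamts5 (0.27), Mmp12 (0.15) and Timp4 (0.22). Signs turned with equal sums for Adam10 (-0.51), Adam15 (-0.69), Adam17 (-0.40), Adam9 (-0.67), Adamts1 (-0.28) and Mmp19 (-0.27). The partner gene Furin, which was past the test, also turned with equal sums (-0.10). Without saline 2 and LPS 3 together, Mmp12 was 0.16 and Timp4 0.026. Single libraries left out gave -0.35 to 0.16 for Adam28, -0.43 to 0.023 for Adamts15, -0.20 to 0.089 for Adamts5, -0.49 to 0.16 for Mmp12, -0.40 to 0.10 for Timp3 and -0.26 to 0.13 for Timp4. The cause was not tested. Depth is unknown, so no detection limit is given for low values.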
